A study of Mus musculus with 18 samples.

Results

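The genes described here are 49 RNA-binding splicing regulators other than the NOVA proteins, chosen by gene symbol from the 23038 symbols of the cortex count table, and the rows that these genes have among 1991 deposited splicing events. They fall into 11 families: Rbfox (3 genes), Ptbp (3), Elavl (4), Celf (6), Mbnl (3), STAR (4), Srrm (4), Pcbp (4), SR and Tra2 (10), hnRNP (7) and TIA (1). All 49 had a row in the count table, with *Ptbp3* listed under its older symbol *Rod1*, and all 49 passed the filter on low counts in each of the 4 comparisons. RNA came from the cortex of 12 CD1 mice at embryonic day 18.5, 3 in each of 4 groups: *Nova2-/-* mice, their wild-type littermates, *Nova1-/-* mice, and the wild-type littermates of these. The null allele of *Nova2* was made by placing an IRES-Cre cassette where the first exon had been, so that *Nova2-/-* mice also carry Cre coding sequence. The deposited splicing table further covers midbrain and hindbrain of *Nova1-/-* mice and wild-type littermates. Each library was made from total RNA after removal of ribosomal RNA, and the labels name each mouse as its own sample.

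Pre-mRNA splicing in neurons is set by many RNA-binding proteins that act on overlapping sets of exons. RBFOX, PTBP, ELAVL (also called Hu), CELF, MBNL, STAR and PCBP proteins each recognise short motifs near exons and raise or lower inclusion according to where they bind. SR and Tra2 proteins mostly promote exon recognition, hnRNP proteins often oppose it, and SRRM3 and SRRM4 promote the inclusion of neuronal microexons. NOVA proteins bind clusters of the tetramer YCAY, in which Y is C or T in DNA letters, and several of these regulators are themselves made from alternatively spliced transcripts.

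The splicing table held events in 5 of the 49 genes, and for a cassette exon in 2 of these, *Elavl2* and *Rbfox2*, the event's name fixed which exon was counted. These exons and the 100 bases of intron on either side are shown because their positions are known, while most events of these genes do not name an exon. All sequences are from mouse genome build mm9, are written 5′ to 3′ on the transcribed strand, and have every YCAY tetramer (TCAT or CCAT, and likewise TCAC or CCAC, searched on the transcribed strand only, with overlapping matches each counted) in capitals. The *Elavl2* exon is a 39-base coding exon at chr4:90920832-90920870 on the minus strand, and its length is a multiple of 3.
Elavl2 intron before the exon: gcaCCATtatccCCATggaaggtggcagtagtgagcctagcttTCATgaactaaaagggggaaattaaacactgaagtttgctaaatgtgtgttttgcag
Elavl2 exon of 39 bases: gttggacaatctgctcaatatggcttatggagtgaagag
Elavl2 intron after the exon: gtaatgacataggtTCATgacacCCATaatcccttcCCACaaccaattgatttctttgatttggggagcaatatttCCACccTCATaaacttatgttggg
The 100 bases after the *Elavl2* exon held 5 YCAY tetramers, a number that 2.92% of 165112 annotated internal coding exons and 12.1% of the 305 cassette exons of the splicing table with a known position reached or passed. Events entered the table only where YCAY lay in a site of NOVA crosslinking at the exon or its neighbouring introns, so that tetramers near a listed exon are partly fixed by the listing. The 100 bases before it held 3 tetramers, which 25.1% of internal coding exons reached or passed, and the exon held none. The *Rbfox2* exon is a 43-base coding exon at chr15:76922242-76922284 on the minus strand, and its length leaves a remainder of 1 when divided by 3.
Rbfox2 intron before the exon: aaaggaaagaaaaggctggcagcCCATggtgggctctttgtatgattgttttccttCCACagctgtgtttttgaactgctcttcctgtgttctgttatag
Rbfox2 exon of 43 bases: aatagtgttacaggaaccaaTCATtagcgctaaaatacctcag
Rbfox2 intron after the exon: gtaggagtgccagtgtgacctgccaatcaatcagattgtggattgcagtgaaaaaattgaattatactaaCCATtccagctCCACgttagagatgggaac
Each of the *Rbfox2* windows held 2 tetramers, which 51.1% of internal coding exons reached or passed in the window before the exon and 44.7% in the window after it. The span of the *Rbfox1* event holds 2 annotated coding exons, at chr16:7306501-7306554 and chr16:7330455-7330535 on the plus strand, and the file does not say which of them was counted. Both have lengths that are multiples of 3, and the exon of 81 bases holds 2 tetramers.
Rbfox1 exon of 54 bases: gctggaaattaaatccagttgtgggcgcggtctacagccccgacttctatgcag
Rbfox1 exon of 81 bases: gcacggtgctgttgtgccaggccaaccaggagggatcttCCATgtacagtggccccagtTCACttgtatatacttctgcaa

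The total count of a mouse ranged from 16518149 to 31361972. *Nova1* counts in *Nova1-/-* cortex were 3, 1 and 5, against 1301 to 2011 in its wild-type littermates, and the CPM of *Nova2* (the count scaled to a common library size with TMM factors) was 18.8 ± 2.42 (SD, n = 3) in *Nova2-/-* cortex and 34.7 ± 5.34 (SD, n = 3) in its littermates. Markers of cortex summed to 913.8 to 1214 CPM in every mouse, and those of midbrain and hindbrain to at most 1.1 CPM. Wild-type replicate 3 of the *Nova2* litters stood apart from the other two wild-type mice of those litters: of the 49 regulators, 34 had this mouse farthest from the group's median, against 10 for replicate 1 and 5 for replicate 2. In the other groups the mouse most often farthest was *Nova2-/-* replicate 3 for 28 regulators, wild-type replicate 4 for 26 and *Nova1-/-* replicate 1 for 26. The median coefficient of variation of the regulators was 9.07% in that group and 4.74% to 5.28% in the other groups. The summed CPM of 15 meningeal markers was 303, 375 and 785 in wild-type replicates 1, 2 and 3 of the *Nova2* litters, against 1233 to 1374 in *Nova2-/-* cortex, 1154 to 1468.5 in wild-type mice of the *Nova1* litters and 991 to 1164 in *Nova1-/-* cortex. The sum of endothelial and mural markers was 197 to 242 in wild-type and 289 to 309 in *Nova2-/-* cortex, and that of neuronal markers was 5033 to 5416 and 4549 to 4911. Of the 9 neuronal markers tested, 4 lay above 0 on the log2 scale, and the 1 that was called, the neurofilament gene *Ina*, was higher in *Nova2-/-* cortex (log2 fold change 0.45, adjusted p = 0.0332 by edgeR). Progenitor markers summed to 1596 to 1960.1 CPM in wild-type and 1935 to 2047 CPM in *Nova2-/-* cortex, with 9 of 11 above 0 and none called (3 at an unadjusted p below 0.05 in edgeR). In these bulk samples fewer cells of a type and less RNA per cell cannot be told apart, and the part of these differences in the results on the *Nova2* litters was not tested.

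To see which regulators the E18.5 cortex expresses, levels were compared as CPM per kb of annotated exonic length over the 6 wild-type mice. They spanned a 970.5-fold range with a median of 32.5 CPM per kb, 33 of the 49 genes were above 25, and 1 was under 1. *Hnrnpk*, an abundant hnRNP that binds C-rich sequences, had the highest level with 194 ± 26.3 CPM per kb (SD, n = 6), and *Ptbp2*, the neuronal polypyrimidine tract-binding protein, followed with 189 ± 5.82. The ranges of these genes over the 6 mice overlapped. *Ptbp2* was 12.9-fold above *Ptbp1*, the form of progenitors and non-neuronal cells, which had 14.6 ± 1.78, and *Ptbp3* had 10.4 ± 0.73. Among the Rbfox genes, *Rbfox2* had 96.8 ± 10.5 CPM per kb, *Rbfox1* 61.6 ± 5.61 and *Rbfox3*, which encodes the marker of mature neurons NeuN, 4.78 ± 0.77. The ranges of these Rbfox genes did not overlap, nor did those of the Ptbp genes.

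*Elavl3* led its family with 47.9 ± 2.58 CPM per kb (SD, n = 6). *Elavl4* had 27.6 ± 4.90 and *Elavl1*, the member made in most cell types, 26.5 ± 1.52, with ranges that overlapped, and *Elavl2* was lowest with 17.3 ± 1.55. Of the Celf genes, *Celf4* was highest with 60.5 ± 5.12 and *Celf6* lowest with 9.21 ± 0.78, and the ranges of *Celf2*, *Celf1* and *Celf3* overlapped between 22.8 and 41.0. *Mbnl1* had 14.3 ± 1.37, *Mbnl2* 9.94 ± 0.79 and *Mbnl3* 0.20 ± 0.06, with 30 to 70 counts of *Mbnl3* per mouse. *Khdrbs3*, which encodes the STAR protein SLM2, had 152 ± 25.2 CPM per kb and *Khdrbs1*, which encodes SAM68, 29.0 ± 3.69. *Srrm2*, a component of the spliceosome, had 34.5 ± 5.80, against 5.07 ± 0.88 for the microexon regulator *Srrm4* and 4.21 ± 0.59 for *Srrm3*, whose ranges overlapped. *Pcbp4* led the Pcbp genes with 99.1 ± 9.90 and *Pcbp3* was lowest with 8.07 ± 1.36. Of the SR and Tra2 genes, *Srsf7* was highest with 107 ± 15.1 and *Srsf10*, a splicing repressor when dephosphorylated, lowest with 21.7 ± 1.47, and 7 of the 9 pairs of neighbours in that order overlapped. In the hnRNP family the lowest level was that of *Hnrnpd* with 28.9 ± 5.25. *Tial1*, which encodes the U-rich binding protein TIAR, had 23.3 ± 1.48. The exonic length joins all annotated isoforms of a gene, so that genes with long, rarely used exons have lower values on this scale. Exonic bases shared with another annotated gene were found for 12 of the 49, so that reads of such partners may be included in their counts.

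**Figure D1:**
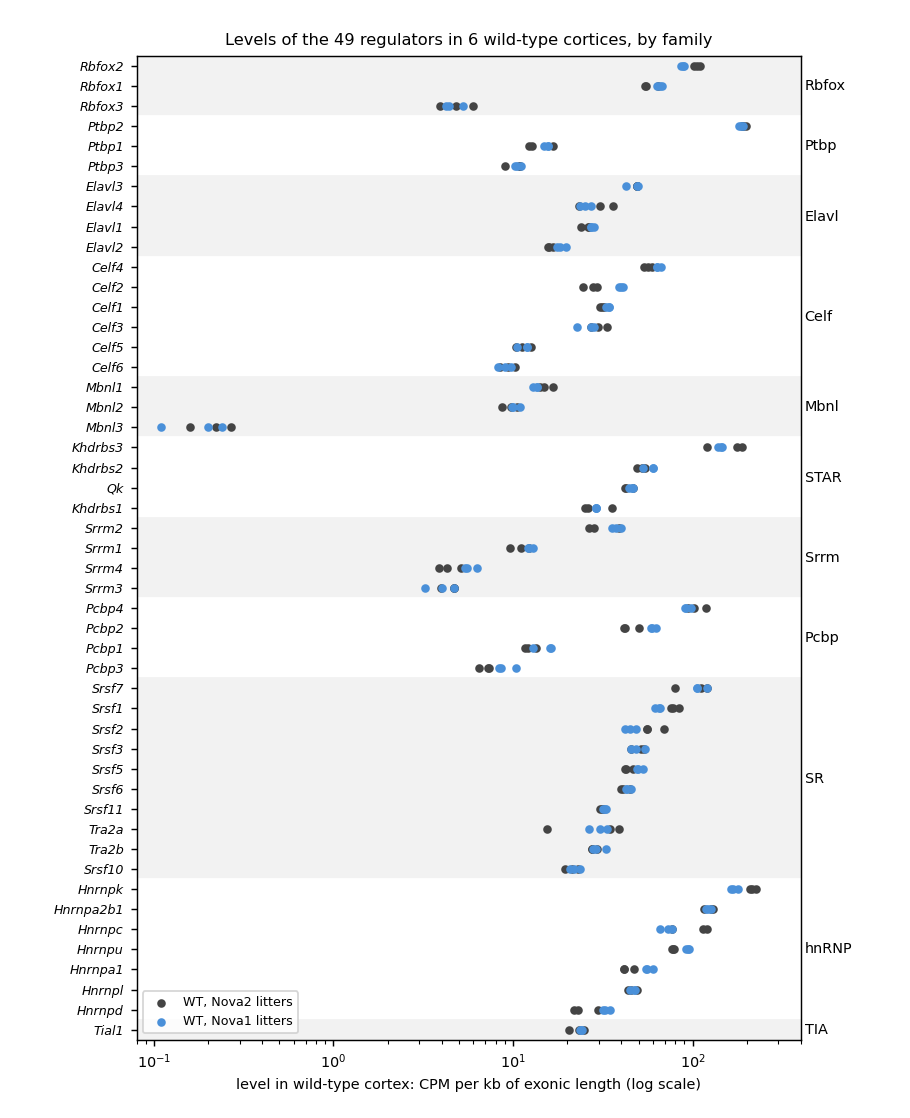
Level of each regulator in the 6 wild-type cortices as CPM per kb of exonic length (x axis, log scale), by family (y axis), with 1 point per mouse, dark for the *Nova2* litters and blue for the *Nova1* litters. *Hnrnpk* and *Ptbp2* lie highest, *Mbnl3* lies below 1, and *Rbfox3*, *Srrm3* and *Srrm4* lie near 5.

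*Nova2-/-* cortex was compared with wild-type littermates to ask whether loss of NOVA2 changed the abundance of other splicing regulators. With the quasi-likelihood test of edgeR and p-values adjusted over 15691 genes by Benjamini-Hochberg, none of the 49 passed 0.05, against 1.06% of all genes. Unadjusted p-values were below 0.05 for 5 of 49, or 10.2%, against 19.2% of all genes tested. The log2 fold changes ran from -0.29 to 0.40 with a median of 0.05, against 0.01 over all genes, and 28 lay above 0. The 95% intervals of all 49 lay within 1 of 0 on the log2 scale, so that none included a doubling, and those of 40 lay within 0.5. The groups of 3 mice did not overlap for 10 genes, or 20.4%, against 26.4% of all genes tested. 5 of these were higher in *Nova2-/-* cortex (*Mbnl2*, *Celf2*, *Celf1*, *Hnrnpa2b1* and *Hnrnpu*) and 5 were lower (*Srsf2*, *Tra2b*, *Pcbp4*, *Srsf1* and *Hnrnpk*).

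The gene with the smallest adjusted p was *Mbnl2*, a muscleblind protein that drives splicing toward adult patterns in brain, at chr14:120674891-120830919 in mm9. Wild-type mice had 44.2, 39.5 and 47.9 CPM, and *Nova2-/-* mice had 58.9, 56.5 and 57.0 CPM. Every *Nova2-/-* mouse was above every wild-type mouse of either set of litters, in which the highest value was 50.2. The log2 fold change was 0.40 (standard error, SE, 0.09, 95% interval 0.19 to 0.62, adjusted p = 0.0839 by quasi-likelihood in edgeR). The same contrast passed in DESeq2 (adjusted p = 0.00956) and in edgeR's exact test (adjusted p = 0.0404). It also passed with all 12 cortex samples in one edgeR fit (adjusted p = 0.0130). Those settings called 5.39%, 3.98% and 8.23% of all genes, against 1.06% in the main fit. With the other filters and normalizations and with a replicate block it did not pass, with edgeR adjusted p up to 0.106. When single mice were left out its log2 fold change stayed between 0.33 and 0.47. Of these fits only that without wild-type replicate 3 passed, and the edgeR adjusted p reached 0.310. An annotated gene of unknown function, *Gm16661*, shares exonic bases with *Mbnl2*. *Mbnl1*, the more abundant paralog, had a log2 fold change of -0.17 (adjusted p = 0.331 by edgeR).

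*Celf2*, on chromosome 2 from 6460751 to 7002348, was at 303, 343 and 362 CPM in wild-type and at 389.7, 403 and 419 CPM in *Nova2-/-* mice. The groups did not overlap, but the wild-type mice of the *Nova1* litters were higher still, between 479 and 504. Its log2 fold change was 0.28 (SE 0.08, adjusted p = 0.133 by quasi-likelihood in edgeR). With all 12 cortex samples in one edgeR fit, which called 8.23% of all genes, the adjusted p was 0.0288. *Srrm2* had 233, 251 and 347 CPM in wild-type and 314, 336 and 401 in *Nova2-/-* cortex, with wild-type replicate 3 inside the knockout range. Its log2 fold change was 0.35 (SE 0.16, adjusted p = 0.272 by edgeR). *Pcbp3*, whose log2 fold change was 0.27, was at 18.9 and 20.02 CPM in *Nova2-/-* replicates 1 and 2 and at 35.4 in replicate 3, against 19.1 to 21.6 in wild-type mice, and without that knockout mouse its log2 fold change was -0.08.

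At the low end was *Srsf2*, which encodes the SR protein SC35, with 164, 165 and 205 CPM in wild-type and 139.6, 148 and 147 in *Nova2-/-* cortex. The log2 fold change was -0.29 (SE 0.10, adjusted p = 0.167 by quasi-likelihood in edgeR), and it was -0.17 without wild-type replicate 3. *Tra2b*, an activator of exon inclusion, had 148, 149 and 158 CPM in wild-type and 128, 130.1 and 129 in *Nova2-/-* cortex, which gave a log2 fold change of -0.22 (SE 0.06, adjusted p = 0.120 by edgeR) with no overlap of the groups. *Pcbp4* had a log2 fold change of -0.22, *Khdrbs1* of -0.21 and *Hnrnpd* of -0.19, and without wild-type replicate 3 these were -0.12, -0.02 and -0.04. *Tra2a*, the paralog of *Tra2b*, had 119, 106 and 47.3 CPM in wild-type and 115, 109 and 104 in *Nova2-/-* cortex. Its log2 fold change of 0.29 (SE 0.28, adjusted p = 0.618 by edgeR) rested on wild-type replicate 3, and without that mouse it was -0.03. *Hnrnpc* likewise was at 325 and 343 CPM in wild-type replicates 1 and 2, at 218 in replicate 3 and at 310.1 to 329 in *Nova2-/-* cortex.

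By family, all 3 Rbfox genes lay below 0, between -0.19 and -0.03, and all 4 Srrm genes above it, between 0.08 and 0.35, with no member of either family past the threshold. *Rbfox1* had 233, 230 and 270 CPM in wild-type and a mean of 229 in *Nova2-/-* cortex, and *Rbfox3* had 22.7, 28.1 and 34.9 against 24.9. Wild-type replicate 3 was thus the highest wild-type mouse for both, and it was the lowest for *Rbfox2*. Of the 10 SR and Tra2 genes 7 lay below 0, and of the 7 hnRNP genes 5 lay above it. Without wild-type replicate 3, 4 of the 49 regulators passed an adjusted p of 0.05, or 8.16%, against 9.03% of 15874 genes tested. These were *Mbnl2* (log2 fold change 0.47, adjusted p = 0.00720 by quasi-likelihood in edgeR), *Srrm2* (0.55, adjusted p = 0.0147), *Celf2* (0.34, adjusted p = 0.0248) and *Ptbp1* (0.34, adjusted p = 0.0477), all higher in *Nova2-/-* cortex. *Ptbp1* was at 58.0, 60.6 and 79.7 CPM in wild-type and at 69.2, 70.8 and 82.5 in *Nova2-/-* mice. Of the 11 progenitor markers, 4 had groups that did not overlap, all higher in *Nova2-/-* cortex. Over all genes 26.4% did not overlap, and 1951 of 15691 did so with higher values in *Nova2-/-* cortex. While 9 of the 11 markers lay above 0, *Hes1* and *Hes5* lay below it, at -0.20 and -0.09. The part of these markers in the level of *Ptbp1* was not tested. With any mouse of the 6 other than wild-type replicate 3 left out, no regulator passed, against 0.0439% to 0.164% of all genes.

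**Figure D2:**
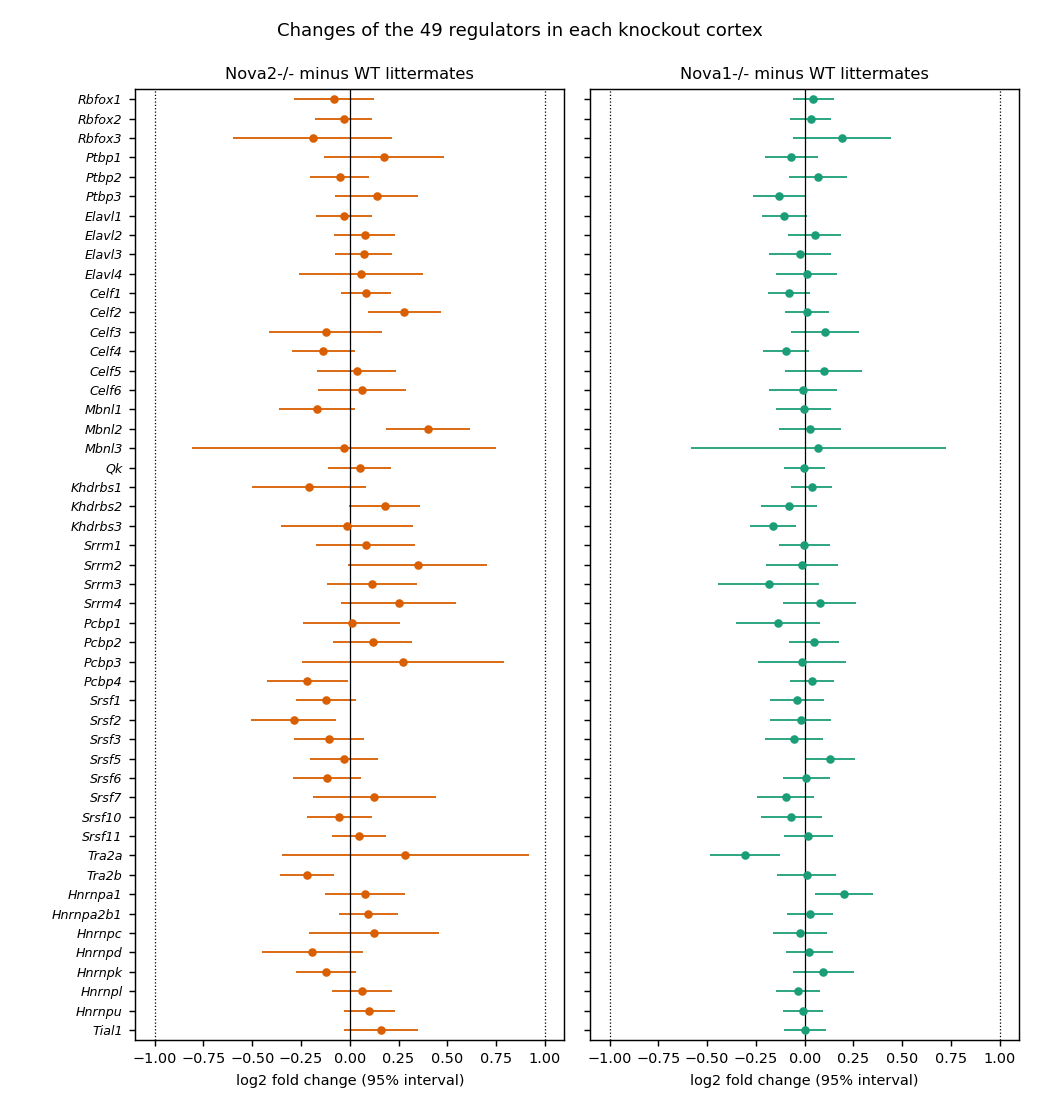
Log2 fold change of each regulator (points) with its 95% interval (lines) in *Nova2-/-* (left, orange) and *Nova1-/-* cortex (right, green) against wild-type littermates, from edgeR's quasi-likelihood fit, 3 mice a group. All 49 intervals lie inside the dotted lines at -1 and 1 in both knockouts, *Mbnl2* lies highest in *Nova2-/-* cortex at 0.40, and *Tra2a* lies lowest in *Nova1-/-* cortex at -0.31.

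The same question was asked of NOVA1. In *Nova1-/-* cortex none of the 49 genes passed an adjusted p of 0.05 in edgeR's quasi-likelihood test, against 0.0126% of 15901 genes, and 4 genes, or 8.16%, had an unadjusted p below 0.05, against 7.44% of all genes. DESeq2 and edgeR's exact test called none either, against 0.214% and 0.34% of all genes. The log2 fold changes ran from -0.31 to 0.20 with a median of -0.0013, 48 of the 49 were under 0.25 in size, and 48 of the 95% intervals lay within 0.5 of 0. The groups of 3 did not overlap for 6 genes, or 12.2%, against 13.5% of all genes tested.

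*Tra2a* had 102, 93.1 and 81.3 CPM in wild-type and 71.4, 72.7 and 79.4 CPM in *Nova1-/-* cortex, so that the groups did not overlap by a narrow margin. Its log2 fold change was -0.31 (SE 0.08, adjusted p = 0.435 by quasi-likelihood in edgeR). *Khdrbs3* had 273, 274 and 262 CPM in wild-type and 246, 249 and 226 in *Nova1-/-* cortex, which gave a log2 fold change of -0.16 (SE 0.05, adjusted p = 0.544 by edgeR). *Hnrnpa1*, a repressor of exon inclusion, had 68.0, 62.1 and 62.8 CPM in wild-type and 71.6, 70.7 and 79.7 in *Nova1-/-* cortex, which gave a log2 fold change of 0.20 (SE 0.07, adjusted p = 0.548 by edgeR). *Srsf5* had 210.2, 198 and 196 CPM in wild-type and 204, 231 and 227 in *Nova1-/-* cortex, which overlap, and a log2 fold change of 0.13. The remaining genes at either end were *Rbfox3* (0.19), *Celf3* (0.10) and *Celf5* (0.10) above 0, and *Srrm3* (-0.18), *Pcbp1* (-0.14) and *Ptbp3* (-0.13) below it, with edgeR adjusted p from 0.672 to 0.855. With single mice left out, these ran from 0.08 to 0.30 for *Rbfox3*, 0.02 to 0.17 for *Celf3*, -0.0096 to 0.17 for *Celf5*, -0.31 to -0.05 for *Srrm3*, -0.23 to -0.07 for *Pcbp1* and -0.16 to -0.09 for *Ptbp3*. *Mbnl2* and *Celf2*, the genes with the smallest p in *Nova2-/-* cortex among those above 0, were at 47.9 ± 3.16 and 496 ± 20.4 CPM in *Nova1-/-* cortex (SD, n = 3) and at 46.9 ± 2.83 and 491 ± 12.1 in its littermates.

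The change in *Nova2-/-* cortex was then set against that in *Nova1-/-* cortex in a fit of all 12 mice. None of the 49 differences passed an adjusted p of 0.05 in edgeR's quasi-likelihood test, against 1.83% of 16210 genes, and 8, or 16.3%, had an unadjusted p below 0.05, against 18.2% of all genes. DESeq2 likewise called none, against 5.25% of all genes. *Tra2a* had the largest difference, 0.58 (SE 0.32, adjusted p = 0.365 by edgeR), and without wild-type replicate 3 of the *Nova2* litters it was 0.28. *Mbnl2* followed with 0.36 (SE 0.12, adjusted p = 0.123 by edgeR), then *Srrm2* with 0.35, *Srrm3* with 0.29 and *Pcbp3* with 0.27. At the other end were *Rbfox3* with -0.39, *Srsf2* with -0.28, *Pcbp4* with -0.27, *Khdrbs1* with -0.26 and *Tra2b* with -0.24. With that wild-type mouse left out they were -0.20, -0.15, -0.16, -0.06 and -0.20, and *Srrm2* was at 0.56. Without wild-type replicate 3 of the *Nova2* litters, the 4 genes *Mbnl2*, *Srrm2*, *Celf2* and *Ptbp1* passed, or 8.16% of the regulators against 6.15% of all genes. With any other mouse left out, none passed, against 0.688% to 1.79% of all genes.

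Wild-type cortex of the *Nova1* litters and wild-type cortex of the *Nova2* litters share genotype, strain and stage, and the difference between them gives the spread between sets of litters. Here 5 of the 49 regulators passed an adjusted p of 0.05 in edgeR's quasi-likelihood test, or 10.2%, against 3.03% of 15918 genes. 4 were higher in the *Nova1* litters (1.8% of all genes were called higher) and 1 was lower (1.23%). Unadjusted p-values were below 0.05 for 17, or 34.7%, against 21.1% of all genes, and the groups did not overlap for 17 genes, 34.7% against 27.4%. The median size of the log2 fold change was 0.162 for the regulators and 0.159 for all genes. Their median SE was 0.089, against 0.127 for all genes. In the comparisons of *Nova2-/-* and *Nova1-/-* cortex, where no regulator was called, it was 0.089 against 0.130 and 0.064 against 0.095. The part of the SE in the number of calls was not tested. The litters and the preparation and counting of their libraries cannot be told apart here: between 7.48% and 11.7% of a mouse's count values were not whole in the *Nova2* litters, against 18.6% to 20.02% in the *Nova1* litters. Of the 15 meningeal markers, whose summed levels are given above, 5 were called higher in the *Nova1* litters, and their part in these results was not tested.

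*Celf2* differed most, with 303, 343 and 362 CPM in the *Nova2* litters and 479, 491 and 504 in the *Nova1* litters, a log2 fold change of 0.56 (SE 0.08, adjusted p = 0.0187 by quasi-likelihood in edgeR). *Pcbp2*, a poly(C)-binding protein on chromosome 15 from 102301063 to 102330490, had 121, 118 and 145 CPM against 179, 167 and 171, a log2 fold change of 0.44 (SE 0.09, adjusted p = 0.0399 by edgeR). Its exons share bases with those of *Map3k12*. *Hnrnpa1*, on chromosome 15 from 103070945 to 103074445, had 46.4, 46.7 and 53.1 CPM against 68.0, 62.1 and 62.8, a log2 fold change of 0.41 (SE 0.09, adjusted p = 0.0488 by edgeR). The genome holds many processed copies of *Hnrnpa1*, and how the counting divided reads among such copies is not given in the sources used here. *Hnrnpu*, a nuclear matrix hnRNP on chromosome 1 from 180253205 to 180267928, had 471, 462 and 453 CPM against 566, 559.7 and 544, a log2 fold change of 0.28 (SE 0.06, adjusted p = 0.0449 by edgeR). *Hnrnpk*, on chromosome 13 from 58492503 to 58504704, had 678, 643 and 624 CPM against 538, 503 and 492, a log2 fold change of -0.33 (SE 0.07, adjusted p = 0.0401 by edgeR).

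These 5 calls depended on single mice, as did the calls over all genes. Without wild-type replicate 1 of the *Nova2* litters only *Celf2* passed in edgeR's quasi-likelihood test, against 0.566% of all genes. Without wild-type replicate 2, 4, 5 or 6 none did, against 0.342%, 0.0187%, 0.105% and 0.0686% of all genes. Without replicate 3, 23 regulators passed, or 46.9%, against 22.3% of all genes. The 5 log2 fold changes kept their sign with every mouse left out. For 3 of these genes every *Nova2-/-* mouse lay between the wild-type groups, with 404 ± 14.6 CPM of *Celf2*, 491 ± 3.44 CPM of *Hnrnpu* and 591 ± 27.4 CPM of *Hnrnpk* (SD, n = 3). *Hnrnpc*, with a log2 fold change of -0.52 (SE 0.15, adjusted p = 0.0920 by edgeR), was at 325, 343 and 218 CPM in the *Nova2* litters and at 218, 207 and 187 in the *Nova1* litters, so that wild-type replicate 3 of the *Nova2* litters was level with the highest mouse of the *Nova1* litters.

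**Figure D3:**
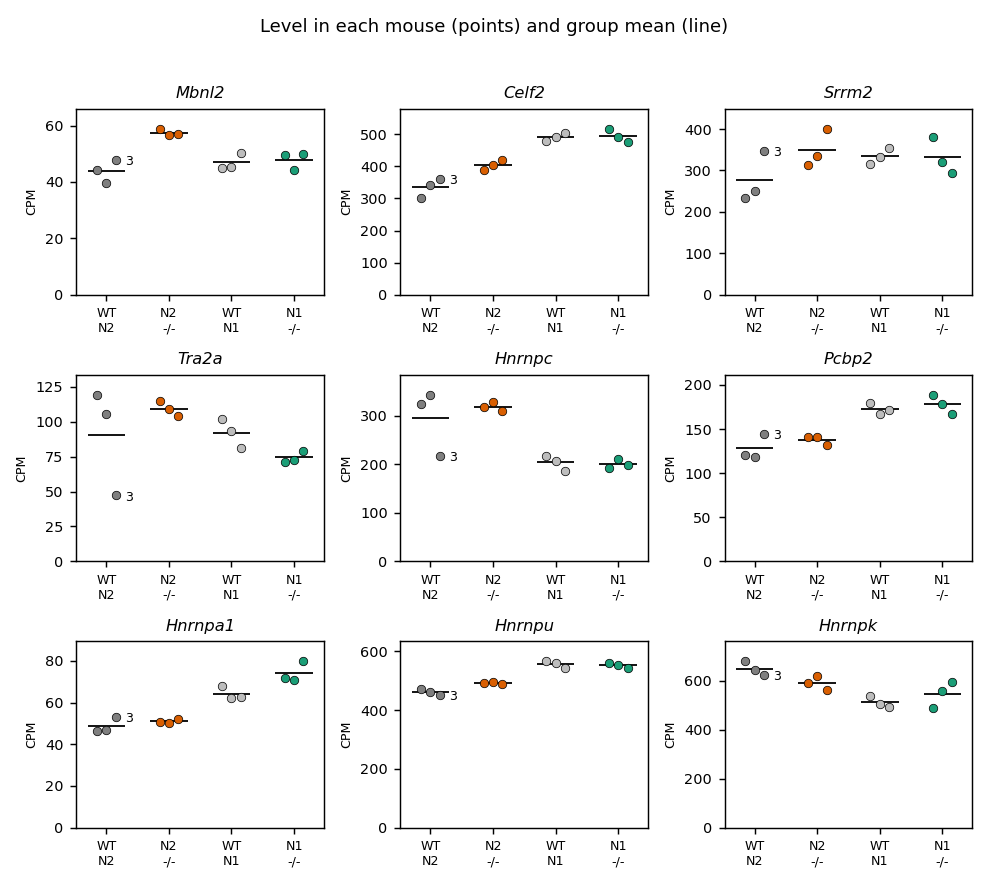
CPM of 9 regulators in each of the 12 cortices (points) with the mean of each group of 3 (lines), for wild-type and *Nova2-/-* mice of the *Nova2* litters (WT N2, N2 -/-) and wild-type and *Nova1-/-* mice of the *Nova1* litters (WT N1, N1 -/-); the label 3 marks wild-type replicate 3 of the *Nova2* litters. *Mbnl2* is highest in the *Nova2-/-* mice, *Celf2*, *Pcbp2*, *Hnrnpa1* and *Hnrnpu* are higher in both groups of the *Nova1* litters than in wild-type mice born to the *Nova2* litters, and *Tra2a* and *Hnrnpc* are low in the mouse marked 3.

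The splicing table was then read for the regulators themselves. Its rows are events that the study listed as NOVA2 targets by their change in *Nova2-/-* cortex and by YCAY in a NOVA crosslinking site, each with a deposited dI, the inclusion fraction in wild-type minus that in knockout, for 3 comparisons and without replicates, so that none could be tested here. It held 24 rows from 5 of the 49 regulators: 12 in *Rbfox2*, 4 in *Celf2*, 4 in *Elavl2*, 3 in *Celf1* and 1 in *Rbfox1*. That is 10.2% of the regulators, against 2.19% of the 23038 symbols of the count table with an event, and no matching for expression was made. The 24 rows covered 14 distinct spans, and 1 row was an exact repeat of another. By type there were 10 with mutually exclusive exons, 8 with a cassette exon, 3 with an alternative 3′ splice site, 2 with a retained intron and 1 with tandem cassette exons. In *Nova2-/-* cortex the size of dI ran from 0.102 to 0.370 with a median of 0.183, against 0.223 over the whole table, and 11 of the 24, or 45.8%, reached 0.2, against 56.2% of all events. None reached 0.5, a size that 170 of the 1991 events passed. In *Nova1-/-* cortex and in *Nova1-/-* midbrain and hindbrain dI was smaller in size than in *Nova2-/-* cortex for all 24 rows, as it was for 1962 of the 1984 events with a value in *Nova1-/-* cortex. The rows were listed for their change in *Nova2-/-* cortex, so that a smaller size elsewhere is in part fixed by the listing. The medians over the 24 rows were 0.0346 and 0.0158, against 0.0341 and 0.0378 over the whole table.

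The 39-base exon of *Elavl2* had a dI of 0.203 in *Nova2-/-* cortex, so that it was included less often there than in wild-type cortex, and of -0.00070 and 0.0029 in *Nova1-/-* cortex and in *Nova1-/-* midbrain and hindbrain. This is the exon printed above with 5 YCAY tetramers in the intron after it. A further cassette event on a span from 90920832 to 90930836, in which the exon of 226 bases is the only annotated coding exon between the flanks, had a dI of -0.125. For an alternative 3′ splice site, on a span that also holds the 39-base exon, 2 rows had 0.105 in *Nova2-/-* cortex, -0.0658 in *Nova1-/-* cortex and 0.0866 in *Nova1-/-* midbrain and hindbrain, the value largest in size there of all 24 rows. The abundance of *Elavl2* in *Nova2-/-* cortex differed from that in wild-type cortex by 0.08 on the log2 scale (95% interval -0.08 to 0.23). ELAVL2 is a neuronal Hu protein that binds U-rich and AU-rich sequences.

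The 43-base exon of *Rbfox2* had a dI of -0.160 in *Nova2-/-* cortex, the sign of higher inclusion in the knockout, and of -0.0142 and -0.0037 in the *Nova1-/-* samples. In 9 further rows, all on the span from 76916497 to 76924920 that also holds this exon, mutually exclusive exons had a dI between 0.164 and 0.308. These rows share a span and are not independent of one another, and the table does not say which exon of each row a positive value stands for. The cassette row with the largest dI of *Rbfox2*, 0.309 on the span from 76920091 to 76924920, also had the value largest in size of all 24 rows in *Nova1-/-* cortex, -0.103, with the opposite sign. The 43-base exon is the only annotated coding exon inside this span, whose lower end matches no annotated exon, and the row does not say which exon it counts. The row at -0.160 lies on the span from 76916497 to 76928502, which also holds an annotated coding exon of 40 bases, 76924881 to 76924920. The span of the row at 0.309 has the upper end of that exon as its own upper end. The direction of the 43-base exon thus differs between these rows if both count it, but their spans and flanks are not the same. A cassette row on the neighbouring span from 76916497 to 76920323, which holds no annotated coding exon between its flanks, had -0.102 in *Nova2-/-* cortex. The RNA of *Rbfox2* differed between *Nova2-/-* and wild-type cortex by -0.03 on the log2 scale (95% interval -0.18 to 0.11). The *Rbfox1* event, whose 2 candidate exons of 54 and 81 bases are printed above, had a dI of 0.129 in *Nova2-/-* cortex, 0.0405 in *Nova1-/-* cortex and -0.0164 in *Nova1-/-* midbrain and hindbrain. The RNA of *Rbfox1* differed by -0.08 (95% interval -0.29 to 0.13).

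The largest dI among the regulators, 0.370, belonged to a retained intron of *Celf2* of 1366 bases, at chr2:6466722-6468087 on the minus strand. It lies beyond the last coding base, 6468135, and so within the 3′ untranslated region of the annotation. It was 0.0341 in *Nova1-/-* cortex and 0.0728 in *Nova1-/-* midbrain and hindbrain, and whether the value counts the spliced or the retained form is not given in the sources used here. *Celf2* also had 0.184 for a row with mutually exclusive exons and 0.179 for a row with tandem cassette exons. The 3 rows of *Celf1*, a CELF protein of most tissues, had dI from -0.182 to -0.178 in *Nova2-/-* cortex and at most 0.0034 in size in the *Nova1-/-* samples. Their spans start at the last coding exon of *Celf1*, whose coding part ends at 90853519 of chromosome 2, and hold no further coding exon, so that they concern the end of the transcript after the coding sequence. Its RNA differed by 0.08 (95% interval -0.05 to 0.21). The other 44 regulators, among them all Ptbp, Mbnl, STAR, Srrm, Pcbp, SR, Tra2 and hnRNP genes and *Tial1*, have no row in the table, which lists events past the study's thresholds in *Nova2-/-* cortex that also had YCAY in a NOVA crosslinking site. It does not show whether other exons of these genes were measured or lacked such a site.

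**Figure D4:**
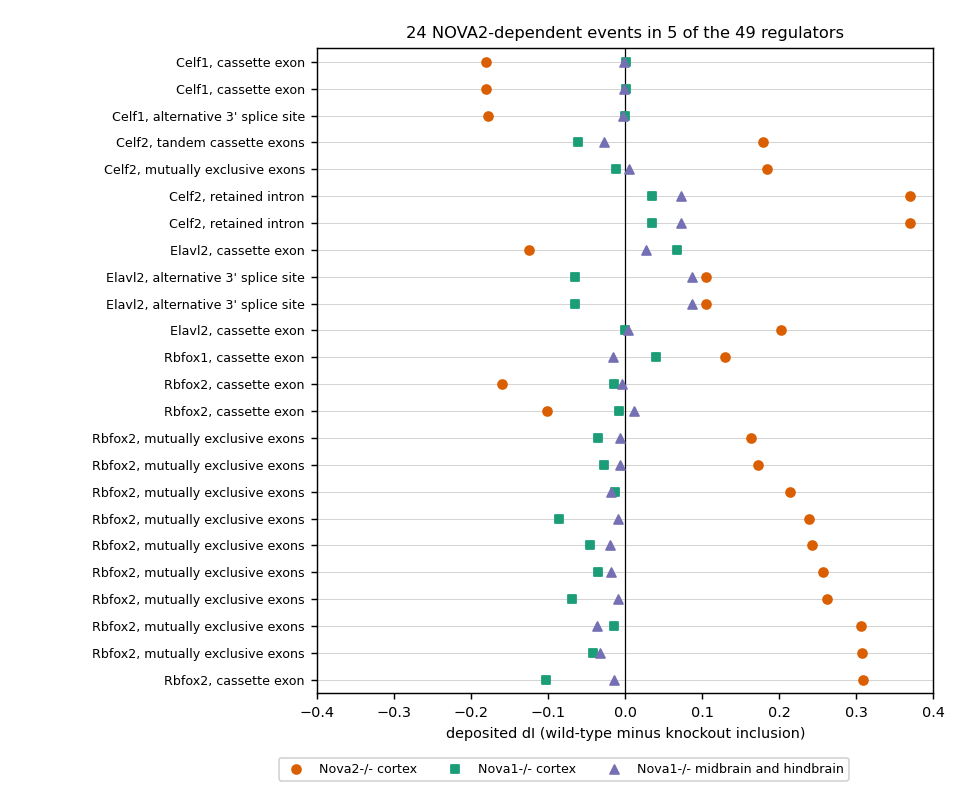
Deposited dI (x axis, wild-type minus knockout inclusion) of the 24 rows in 5 regulators (y axis, gene and type of event) in *Nova2-/-* cortex (circles), *Nova1-/-* cortex (squares) and *Nova1-/-* midbrain and hindbrain (triangles). The circles lie between 0.102 and 0.370 in size, while the squares and triangles lie within 0.103 of 0.

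For wider context, 70 further splicing factors (other SR and hnRNP proteins, core factors, and tissue-restricted regulators) were counted in the same fits, of which 67 were tested. None passed an adjusted p of 0.05 in *Nova2-/-* cortex, in *Nova1-/-* cortex or in the difference between them, with 9, 5 and 8 at an unadjusted p below 0.05, or 13.4%, 7.46% and 11.9%, against 19.2%, 7.44% and 18.2% of all genes. The largest log2 fold changes in size were those of *Rnps1*, an exon junction complex factor, with -0.69 (SE 0.24, adjusted p = 0.180 by quasi-likelihood in edgeR) in *Nova2-/-* cortex, followed by *Hnrnph3* with 0.34 and *Hnrnpa3* with -0.34, and of *Esrp2*, an epithelial regulator, with 0.43 (SE 0.35, adjusted p = 0.829 by edgeR) in *Nova1-/-* cortex, with *Rbm24* at 0.16. In the difference between the knockouts they were *Rnps1* with -0.79, *Snrpc* with -0.42 and *Hnrnpa3* with -0.39. Between the sets of wild-type mice, *Raly* with a log2 fold change of -0.45 (SE 0.10, adjusted p = 0.0436 by edgeR) and *Hnrnpab* with -0.37 (SE 0.06, adjusted p = 0.0237 by edgeR) were among those that passed, both lower in the *Nova1* litters. Of the 70, 8 had 20 rows in the splicing table, with a dI in *Nova2-/-* cortex from -0.212 (*Clk4*, a kinase of SR proteins) to 0.281 (*Luc7l*, a U1 snRNP-associated factor), and *Tia1*, the paralog of *Tial1*, had 5 rows with dI between 0.179 and 0.194.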

How the data were processed

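RNA was extracted from the cortex of each mouse with Trizol, depleted of ribosomal RNA, made into libraries with a TruSeq kit and sequenced as paired ends. The authors aligned reads to mm10 with OLego and converted coordinates to mm9. The abundance table deposited by the authors holds expected counts per gene symbol, not normalized. The counting program, annotation and use of strand are not given in the sources used here. The deposited splicing table holds dI, a score without replicates that the authors computed as wild-type minus knockout inclusion. Its sign was checked on exons of *Neo1* and *Arhgef12*. Columns with the authors' own fold changes and false discovery rates were not used, and abundance in other brain regions was not analysed here.

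Expected counts were rounded to whole numbers and genes kept by edgeR's filterByExpr. Each comparison was fitted across all genes with edgeR 4.0.16 (R 4.3.3), TMM normalization and the two-sided quasi-likelihood test, with Benjamini-Hochberg adjustment over all genes tested. A gene was called at an adjusted p below 0.05. The standard error was derived as the size of the log2 fold change divided by the square root of the quasi-likelihood F statistic. The 95% intervals use this value. CPM values share 1 TMM scale over the 12 cortex libraries. DESeq2 1.42.0, edgeR's exact test, other normalizations and filters, all 12 samples in one fit, a replicate block and leaving out each mouse were tried as alternatives, and the count script was tested on simulated data. Total counts of 16518149 to 31361972 per mouse set the counting precision, and p-values measure the spread between mice. Exons and lengths come from GENCODE vM1 on NCBIM37 (mm9), and deposited start positions were raised by 1 to count from 1.

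The members and lists were chosen with earlier results of these data known. Genes named with values are those called in any comparison, the 5 highest and 5 lowest log2 fold changes of the knockout comparisons and their difference, those with a splicing event, the highest and lowest level of each family, and the 3 largest changes among the further splicing factors. One of the further splicing factors is not reported here. Others, among them *Ptbp1*, *Hnrnpc*, *Mbnl1* and the further genes whose groups do not overlap, were named after their values were seen. The same replicate number in knockout and wild-type mice is not stated to mark a shared litter.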

Additional observations from a re-analysis of the deposited data

How the results depend on the processing

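No regulator was called in *Nova2-/-* cortex with edgeR's quasi-likelihood test, against 1.06% of all genes. DESeq2 called 1, or 2.04% against 5.39% of all genes, and edgeR's exact test 1, or 2.04% against 3.98%. With all 12 cortex samples in one fit 2 were called, or 4.08% against 8.23%. With a mouse left out 0 to 4 were called, against 0.0439% to 9.03% of all genes. The difference between the knockouts gave 0, against 1.83% of all genes, or 0 to 4 with a mouse left out, against 0.688% to 6.15%. *Nova1-/-* cortex gave 0 under every alternative run, against 0.00622% to 0.34% of all genes. Between the wild-type sets 5 were called, or 10.2% against 3.03% of all genes. DESeq2 called 11, or 22.4% against 8.37%, and edgeR's exact test 10, or 20.4% against 7.26%. With a mouse left out 0 to 23 were called, against 0.0187% to 22.3% of all genes. Why the counts moved was not tested. The highest counts, 4 in *Nova2-/-* cortex, 4 in the difference and 23 between the wild-type sets, came without wild-type replicate 3 of the *Nova2* litters. A replicate block for *Nova2-/-* cortex called 0 regulators and 210 genes, against 166 without it. The same-numbered mice had correlations of 0.0897, -0.0153 and 0.145, and mice with different numbers had -0.184 to 0.121. These values do not settle whether the numbers mark a shared litter, which is not stated, and the main fits did not pair the mice. In the wild-type and *Nova1-/-* comparisons the groups share no number.

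With a mouse left out, the log2 fold change changed sign for *Tra2a* in *Nova2-/-* cortex (-0.027 to 0.53), *Pcbp3* in *Nova2-/-* cortex (-0.078 to 0.44) and in the difference (-0.056 to 0.45), and *Celf5* in *Nova1-/-* cortex (-0.0096 to 0.17). Of 288 values for named genes with a mouse left out, 253 kept direction and side of the threshold, 24 lost the call, 7 gained one and 4 changed sign. Of 243 values under the other alternatives, 239 kept both and 4 gained a call. Counted once per span, the 24 splicing rows came to 14, with 9 instead of 18 above 0. At a size of dI of at least 0.2 there were 11 rows, 11 of them above 0, in 3 regulators instead of 5. The dI values carry no replicates or depth, so that their error is unknown.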
